A study of Homo sapiens with 4 samples.

Results

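Potassium channel genes were examined in IMR-32 cells after knockdown of NeuroD1. They were taken as every gene whose symbol starts with KCN, without antisense RNAs and pseudogenes, that had at least 10 raw counts summed over the 4 libraries. Of 123 such symbols, 23 were antisense, opposite-strand or divergent RNAs or a pseudogene, and 33 of the remaining 100 had fewer than 10 counts. This left 67 of the 60612 genes in the count table. Of these, 66 are protein-coding and 1, KCNH1-IT1, is a sense intronic RNA of KCNH1.

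IMR-32 is an established line of human neuroblastoma cells in which MYCN is amplified. All libraries came from cells stably carrying a doxycycline-inducible short hairpin and given doxycycline at 1 µg/mL for 48 h. The hairpin was a control in 2 libraries (shControl) and targeted NeuroD1 in 2 libraries (shNeuroD1). The study used more hairpins than 1 against NeuroD1. The numbers 1 and 2 that end the sample titles were read as replicates, which the labels do not state. On that reading, every change below rests on 1 hairpin against NeuroD1. The labels call the control cells wild type, name no hairpin sequence, and do not state whether libraries of a group were separate cultures, so p-values measure the spread between these libraries, which may be technical. In bulk RNA, fewer cells expressing a gene and less RNA per cell cannot be told apart.

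Potassium channels let potassium leave the cell and so pull the membrane towards a negative resting voltage. Voltage-gated members end action potentials and set firing rate, inward rectifiers and leak channels hold the resting voltage, and calcium- or sodium-activated members add a brake after activity. Most form multi-subunit complexes in which the choice of subunit sets gating, and silent modifier subunits make no channel alone but change Kv2 channels when they join them. Sympathetic neuroblasts, from which neuroblastoma derives, use KCNQ and KCNH channels among others to keep firing low.

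Each library held between 14665210 and 16482463 counts, so that a gene with about 10 counts was at the edge of what could be tested. NEUROD1 had 6174 and 6582 counts in shControl against 969 and 886 in shNeuroD1 (log2 fold change -2.77, with SE 0.0504 and edgeR adjusted p = 8.6e-29). Of 10 sympathetic neuroblast markers, 8 had at least 100 counts in a library, and their summed level lay between 3955 and 4256 CPM. CPM here are counts scaled to library size after TMM adjustment, so they can move apart from shares of the raw counts. MYCN itself had 29840 and 30880 counts against 29956 and 30146. TH (10 and 20 counts against 88 and 79) was low in shControl and DBH (23 and 24 against 12 and 11) in both groups. Markers of Schwann cells and glia summed to 5.50 and 5.60 CPM in shControl and 8.81 and 10.2 CPM in shNeuroD1, those of blood and endothelium stayed at or below 0.592 CPM, with HBB at 0, and those of mesenchymal cells went from 224 and 228.7 to 153.6 and 145.7 CPM, with PRRX1 at 0. The part of these marker changes in the channel results was not tested.

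More potassium channel genes rose than fell, while the most abundant one in shControl, KCNG1, fell. The set passed the filter on low counts for 59 of its 67 members. Of these 59, 16 (27.1%) were higher in shNeuroD1 and 7 (11.9%) were lower, at an edgeR adjusted p under 0.05 with a log2 fold change beyond 1, against 8.79% higher and 5.14% lower among all 17537 genes tested. A gene that is low in one group can pass the filter only through the other group, so the count was repeated over genes that passed in both groups. There, 14 of 54 members were higher and 6 were lower, against 5.61% and 4.45% of 15502 genes. At an adjusted p under 0.05 alone, 23 of the 59 members were higher and 14 lower, against 26.8% and 28.2% of all genes. The libraries of the groups did not overlap for 28 of the 59 members that were higher and 21 that were lower, against 38.4% and 37.7% of all genes. By both of these counts the members' share was above that of all genes upwards and below it downwards. The median log2 fold change was 0.15 over the 59 members and 0.01 over all genes tested, and the median size of the change, without its sign, was 0.66 against 0.34.

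**Figure D1:**
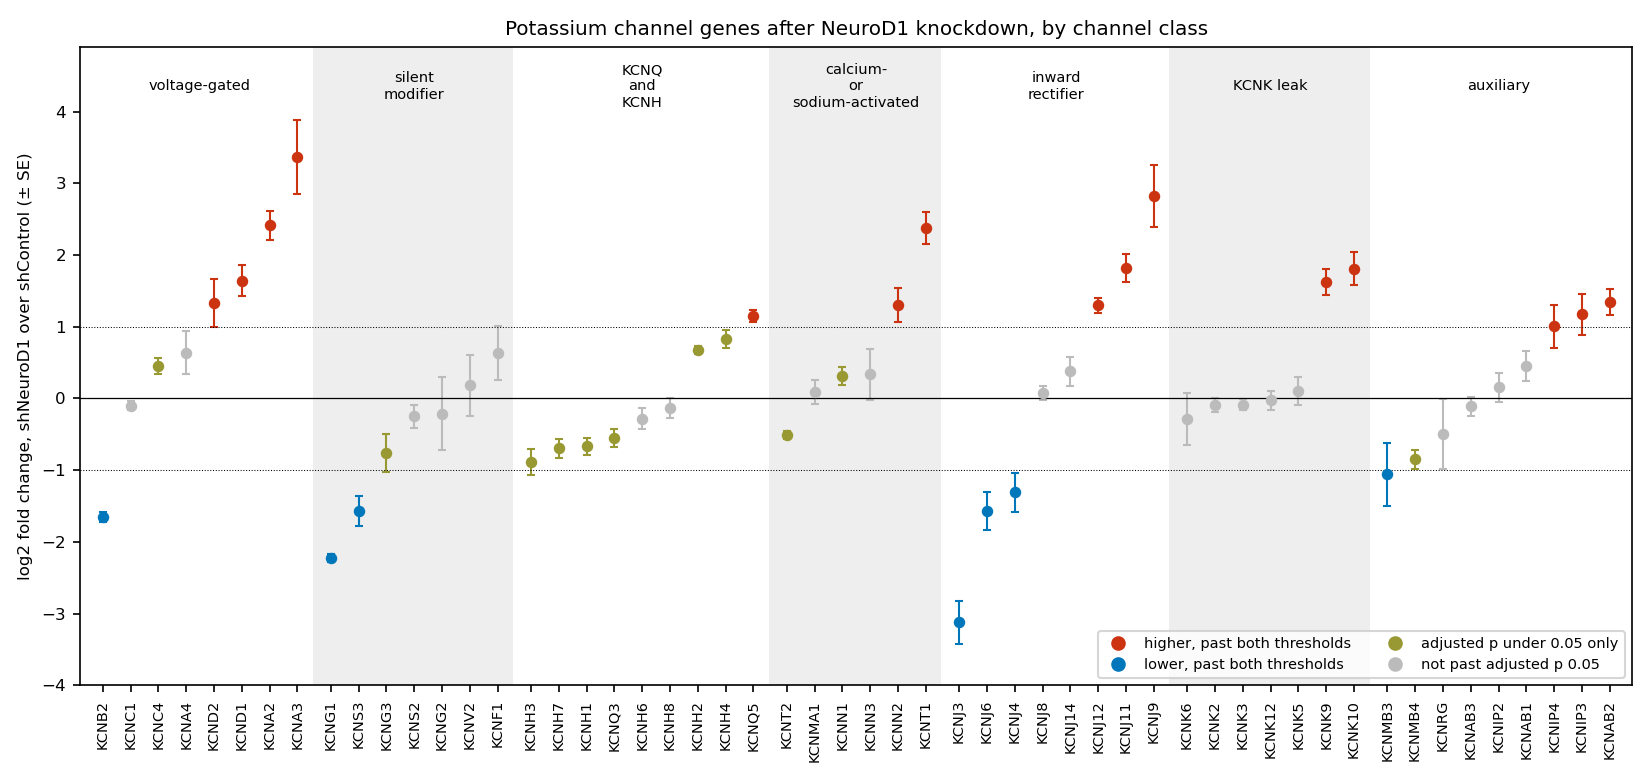
Log2 fold change (shNeuroD1 over shControl) with its standard error for 54 of the protein-coding members tested, one point per gene, grouped by channel class along the horizontal axis. Red and blue points passed both thresholds, olive points only the adjusted p, and dotted lines mark a log2 fold change of 1 and -1. The points run from -3.12 for KCNJ3 to 3.37 for KCNA3, and every class except the silent modifiers holds a gene past both thresholds upwards.

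Raw counts in the members took 0.101% and 0.102% of each shControl library and 0.102% and 0.104% of each shNeuroD1 library, nearly the same share. Their make-up changed. In TMM-scaled CPM the members summed to 1059.5 and 1061.2 in shControl and to 981.9 and 998.6 in shNeuroD1. The raw share did not fall, so this drop reflects the TMM scaling, which also enters the sums per length. Per length, as CPM per kb of exon, the members summed to 181.4 and 179.2 in shControl and to 149.7 and 149.5 in shNeuroD1. Silent modifiers alone went from 52.4 and 47.6 to 14.0 and 13.5, and the voltage-gated class from 28.9 and 31.5 to 20.5 and 20.6. Most of the silent modifier fall was KCNG1, which went from 45.1 and 41.4 to 9.30 and 9.26. KCNB2 went from 20.9 and 22.7 to 7.19 and 6.66, a larger fall than that of the whole voltage-gated class, so the rest of that class rose in sum. The KCNQ and KCNH class went the other way, from 38.8 and 38.5 to 50.7 and 51.9, and the inward rectifiers from 16.53 and 15.7 to 20.3 and 20.0. KCNG1 was the member with the highest level per length in shControl, with 24.8% and 23.1% of the sum, and KCNH2 was in shNeuroD1, with 10.95% and 11.1%. The leading 5 members together held 55.4% and 54.5% of the sum in shControl and 38.9% and 39.8% in shNeuroD1.

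**Figure D2:**
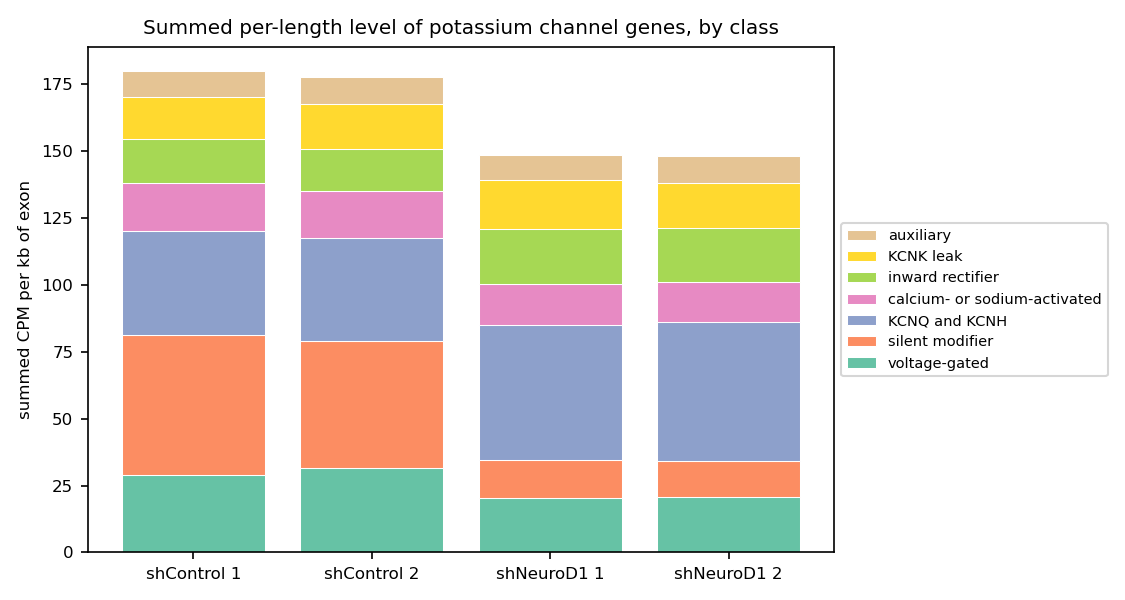
Summed level of the protein-coding members per library, as CPM per kb of exon, stacked by channel class. The silent modifier block shrinks from 52.4 and 47.6 in the shControl libraries to 14.0 and 13.5 in the shNeuroD1 libraries, and the KCNQ and KCNH block grows from 38.8 and 38.5 to 50.7 and 51.9.

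NEUROD1 is a basic helix-loop-helix factor, and such factors bind the E-box, CANNTG, with CAGATG and CAGCTG among its forms. RefSeq promoters (GRCh38.p14) were found for 50 of the 67 members, 16 of them past both thresholds. In the 250 bases before each transcript start, 58.2% of the members' 79 promoters held CANNTG, against 61.8% of 35116 promoters of all genes. CAGATG, which was also read as its reverse complement, was in 15.2% against 12.2%, and CAGCTG in 17.7% against 14.0%. CANNTG and CAGCTG read the same on both strands, and both 6-base forms are counted within CANNTG. Among promoters of members that were higher, 11 of 20 held CANNTG, and among those of members that were lower, 5 of 8 did. A match is a description of the letters and not a binding site.

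The promoters of 7 members are shown, with E-boxes in capitals, because these members passed both thresholds and the deposited transcript tables place a start at or near them. Each runs 5′ to 3′ on the strand of the gene and ends at the base before the RefSeq start. KCND1 (chrX:48971845-48972094, minus strand) holds 1 CAGATG, whose first base lies at position -156 from the start. KCNN2 (chr5:114361820-114362069, plus strand) holds 1 other E-box, at -109, and KCND2 (chr7:120272925-120273174, plus strand) holds 2. KCNK10 (chr14:88326913-88327162, minus strand), KCNA2 (chr1:110606359-110606608, minus strand), KCNJ3 (chr2:154698445-154698694, plus strand) and KCNS3 (chr2:17878417-17878666, plus strand) hold no E-box in these windows. The other RefSeq promoter of KCNA2 holds 3, that of KCNS3 holds 2 and that of KCNK10 holds 1. None of these other promoters has a start in the deposited tables.
KCND1: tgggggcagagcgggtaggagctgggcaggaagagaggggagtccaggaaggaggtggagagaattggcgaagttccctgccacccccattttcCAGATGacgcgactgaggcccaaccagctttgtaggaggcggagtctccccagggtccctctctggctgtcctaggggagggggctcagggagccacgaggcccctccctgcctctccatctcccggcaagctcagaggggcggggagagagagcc
KCNN2: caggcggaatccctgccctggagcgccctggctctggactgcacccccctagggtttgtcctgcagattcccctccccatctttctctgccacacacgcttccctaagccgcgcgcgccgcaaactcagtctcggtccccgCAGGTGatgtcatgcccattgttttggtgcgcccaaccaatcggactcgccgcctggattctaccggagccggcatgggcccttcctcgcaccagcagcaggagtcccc
KCND2: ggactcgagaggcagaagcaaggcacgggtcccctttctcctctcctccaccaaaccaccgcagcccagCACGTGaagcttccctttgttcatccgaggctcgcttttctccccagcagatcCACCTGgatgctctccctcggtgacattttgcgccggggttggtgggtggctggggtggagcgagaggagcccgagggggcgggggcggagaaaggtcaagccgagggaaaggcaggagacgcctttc
KCNK10: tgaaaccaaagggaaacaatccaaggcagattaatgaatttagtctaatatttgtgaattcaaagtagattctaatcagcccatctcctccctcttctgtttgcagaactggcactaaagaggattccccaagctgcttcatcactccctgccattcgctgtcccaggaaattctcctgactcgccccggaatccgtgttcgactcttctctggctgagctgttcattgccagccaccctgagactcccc
KCNA2: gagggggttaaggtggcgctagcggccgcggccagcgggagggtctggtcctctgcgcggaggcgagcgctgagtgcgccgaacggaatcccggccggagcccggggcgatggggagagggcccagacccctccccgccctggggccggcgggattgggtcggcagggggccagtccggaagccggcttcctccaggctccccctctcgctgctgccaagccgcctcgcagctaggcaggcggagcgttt
KCNJ3: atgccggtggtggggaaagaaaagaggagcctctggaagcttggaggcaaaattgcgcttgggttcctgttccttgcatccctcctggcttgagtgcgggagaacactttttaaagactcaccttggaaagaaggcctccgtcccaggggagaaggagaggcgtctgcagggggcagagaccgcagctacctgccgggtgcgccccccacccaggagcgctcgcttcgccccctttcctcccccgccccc
KCNS3: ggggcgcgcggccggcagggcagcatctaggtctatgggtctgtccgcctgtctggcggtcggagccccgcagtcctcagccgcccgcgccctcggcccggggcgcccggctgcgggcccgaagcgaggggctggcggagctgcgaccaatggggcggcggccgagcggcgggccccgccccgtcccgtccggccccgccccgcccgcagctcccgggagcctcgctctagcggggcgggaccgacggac

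The transcript tables give each start a level in FPKM (fragments scaled for transcript length and library size) made from the same reads, so they are no independent measurement. The KCND1 start lay exactly at the RefSeq start and was listed at 0.0358 FPKM in shControl 2, at 0.905 and 0.789 in shNeuroD1 and not at all in shControl 1. The KCNA2 start, 4 bases inside the RefSeq transcript, was listed only in shNeuroD1, at 0.400 and 0.460 FPKM. The KCNJ3 start, 114 bases before the RefSeq start, was listed only in shControl, at 1.32 and 0.527 FPKM. The KCNS3 start lay exactly at the RefSeq start, at 2.74 and 2.31 FPKM in shControl, 1.25 in shNeuroD1 1 and unlisted in shNeuroD1 2. With an unlisted start taken as lowest, the start levels of the groups did not overlap in these 4 genes, nor in KCNK10. The KCNK10 start, 5 bases inside the RefSeq transcript, was listed at 0.0917 FPKM in shControl 1, at 0.372 and 0.233 in shNeuroD1 and not in shControl 2. The KCND2 start, exactly at the RefSeq start, was listed only in shNeuroD1 2, at 0.255 FPKM. The KCNN2 start, also exactly at the RefSeq start, had 0.608 and 0.539 FPKM in shControl and 1.42 and 0.294 in shNeuroD1, so its groups overlapped while its counts did not. Of the 23 members past both thresholds, 16 had a start in these tables. Their summed FPKM was apart in the direction of the counts in 13 and overlapped between groups in 3, KCNIP3, KCNN2 and KCNJ9. These 16 were picked by counts from the same reads, and the share over all genes in the transcript tables was not computed.

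Among the voltage-gated subunits, which open on depolarisation, 5 of 10 tested rose and 1 fell past both thresholds. For this and every other class, the background is 8.79% of all genes tested higher and 5.14% lower. KCNB2, a delayed rectifier subunit and the member of the class with the highest level per length, had 1105 and 1289 counts in shControl against 392 and 363 in shNeuroD1 (log2 fold change -1.65, with SE 0.0715 and edgeR adjusted p = 4e-19). The libraries of the groups were far apart.

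Kv1 subunits form low-threshold channels at axons and synapses. KCNA3 (ENSG00000177272, chromosome 1, 110672465 to 110675033, minus strand) gave 4 and 2 counts in shControl against 35 and 29 in shNeuroD1, with a fitted change of 3.37 on the log2 scale (SE 0.515 and edgeR adjusted p = 1.4e-06). Without shControl 1 it was 3.97 and without shControl 2 it was 2.91, both still called. The gene passed the filter only through the shNeuroD1 libraries, and the level there was still just 2.10 ± 0.280 CPM (SD, n = 2). KCNA2 (ENSG00000177301, chromosome 1, 110519837 to 110631474, minus strand) gave 29 and 27 counts against 145 and 153 (log2 fold change 2.41, with SE 0.206 and adjusted p = 9.5e-12). KCNA4, an inactivating subunit named here after its values were seen, had 28 and 25 counts against 34 and 48 and did not pass the test (adjusted p = 0.0729). Per length, KCNA4 held 67.4% and 71.9% of the 3 genes' sum in shControl and 27.0% and 36.3% in shNeuroD1. That sum was 0.672 and 0.522 CPM per kb in shControl and 1.98 and 2.07 in shNeuroD1. The shares rest on merged exon lengths of 4195 bases for KCNA4 and 17379 for KCNA2.

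Kv4 subunits carry the fast, inactivating A-type current of dendrites. KCND1 had 28 and 41 counts in shControl against 103 and 111 in shNeuroD1 (log2 fold change 1.64, with SE 0.216 and edgeR adjusted p = 1e-07). KCND2 had 12 and 25 counts against 37 and 56 (log2 fold change 1.34, with SE 0.334 and adjusted p = 0.00105). The groups were apart in both genes, but the KCND2 libraries differed widely within each group. KCND2 was not called without shControl 1 (0.94, adjusted p = 0.148), without shControl 2 (1.89, adjusted p = 0.0528) or without shNeuroD1 2 (1.01, adjusted p = 0.05). KCND3 had between 6 and 14 counts a library and was not tested. Among the fast Kv3 subunits, KCNC4 passed the adjusted p alone, with a log2 fold change of 0.45. KCNC1, the Kv3 gene with the highest level per length and named after its values were seen, had 725 and 881 counts against 746 and 743 (log2 fold change -0.10, SE 0.0684, adjusted p = 0.226).

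**Figure D3:**
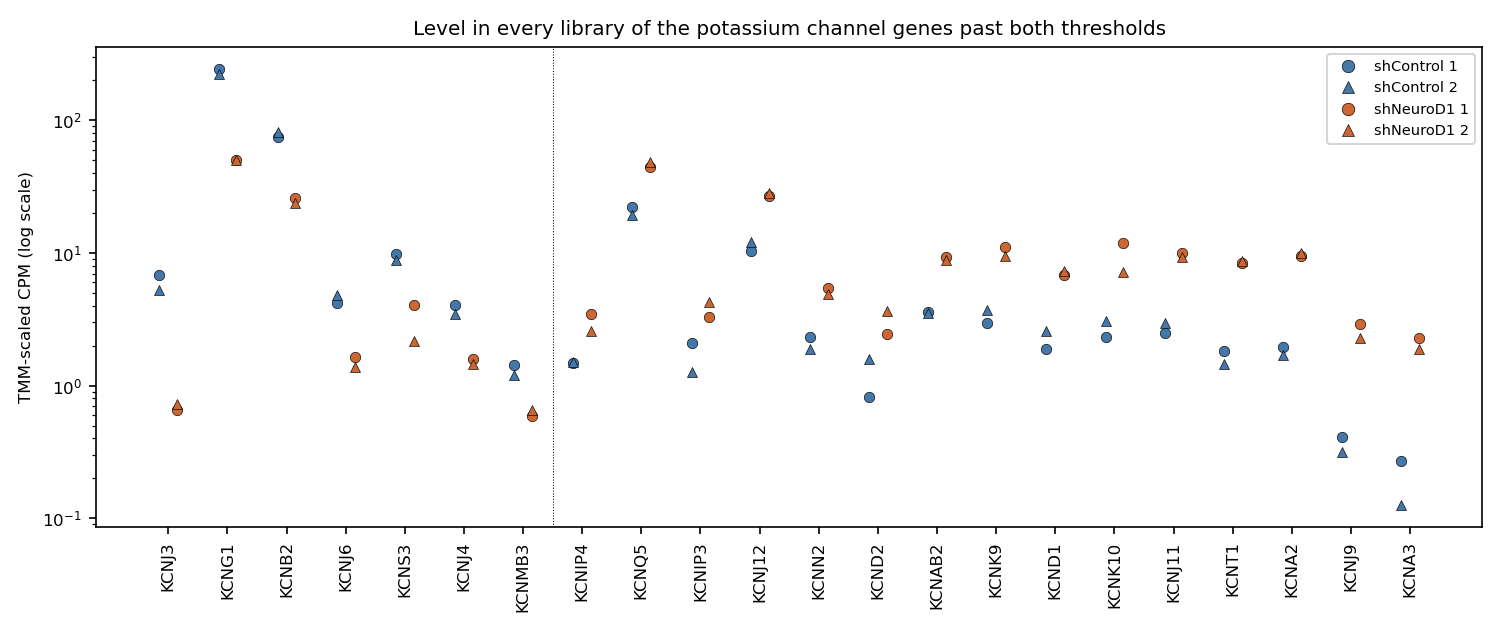
Level in every library of 22 of the members past both thresholds, as TMM-scaled CPM on a log axis, with circles and triangles for the libraries numbered 1 and 2. Genes are ordered by log2 fold change, and those left of the dotted line fell. The shControl and shNeuroD1 points are apart for every gene drawn, but these genes were picked by the test on the same values. Over all genes tested, the groups were apart upwards in 38.4% and downwards in 37.7%. KCNG1 is the highest (244.99 and 225.0 CPM in shControl) and KCNA3 the lowest in shControl (0.271 and 0.126 CPM).

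None of the 7 silent modifier genes rose past the thresholds and 2 fell. KCNG1 (ENSG00000026559, chromosome 20, 51003656 to 51023129, minus strand), whose protein joins Kv2 subunits and changes the gating of their channels, gave 3611 and 3573 counts in shControl against 769 and 767 in shNeuroD1. By edgeR it changed by -2.22 on the log2 scale (SE 0.0546, adjusted p = 2e-25), and 21.5% of the control level remained. This was the most abundant potassium channel gene of the shControl cells both in counts and per length, and the libraries of each group lay close together. KCNS3, another Kv2 modifier, had 144 and 140 counts against 62 and 33 (log2 fold change -1.57, with SE 0.207 and adjusted p = 1.1e-07). The shNeuroD1 libraries were unequal, and KCNS3 just missed the threshold for the adjusted p without shControl 1 (-1.51, adjusted p = 0.0501). KCNG3 passed the adjusted p alone (-0.76). KCNS2, KCNG2, KCNV2 and KCNF1, named after their values were seen, did not pass it, with log2 fold changes from -0.25 to 0.63. Per length, against KCNB2, which also fell, KCNG1 stood 2.15 and 1.83 times above in shControl and 1.29 and 1.39 times in shNeuroD1.

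In the KCNQ and KCNH class most changes were small. All 11 members were tested, 9 passed the adjusted p, 5 upwards and 4 downwards, and 1 passed both thresholds. Over all genes tested, 26.8% passed the adjusted p upwards and 28.2% downwards, and 8.79% and 5.14% passed both thresholds. KCNQ subunits carry the M-current, which restrains repeated firing. KCNQ5 (ENSG00000185760, chromosome 6, 72621792 to 73198851, plus strand) had 330 and 307 counts in shControl against 673 and 736 in shNeuroD1 (log2 fold change 1.15, with SE 0.0850 and edgeR adjusted p = 3.3e-13). KCNQ3 passed the adjusted p alone, with -0.56. KCNQ5 stood 2.48 and 1.96 times above KCNQ3 per length in shControl and 7.30 and 7.15 times above it in shNeuroD1.

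KCNH subunits include the ether-a-go-go and hERG channels, and KCNH2 encodes the hERG pore. KCNH2 (ENSG00000055118, chromosome 7, 150944961 to 150978315, minus strand) had the highest level per length of its class, with 935 and 920 counts in shControl against 1466 and 1491 in shNeuroD1. By edgeR it changed by 0.68 on the log2 scale (SE 0.0579, adjusted p = 9.7e-12), below the threshold for size. The deposited tables split KCNH2 into 2 starts. The first, with its first exon at 150977838 to 150978321, makes the long hERG form, and had 3.55 and 3.99 FPKM in shControl against 6.04 and 7.13 in shNeuroD1. The second, at 150955396 to 150955804 within the gene, makes the form with a short amino terminus, and had 4.39 and 5.49 FPKM against 9.29 and 9.19. The short form took 55.3% and 57.9% of the sum in shControl and 60.6% and 56.3% in shNeuroD1, so both starts were higher and their shares overlapped between groups. KCNH4 also passed the adjusted p upwards (0.83), and KCNH1 (-0.66), KCNH3 (-0.88) and KCNH7 (-0.70) passed it downwards. KCNH6 and KCNH8 did not pass.

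Of the 6 calcium- or sodium-activated genes tested, 2 rose and none fell past both thresholds. KCNT1 (ENSG00000107147, chromosome 9, 135702185 to 135795508, plus strand), a sodium-activated channel, had 27 and 23 counts in shControl against 127 and 132 in shNeuroD1 (log2 fold change 2.37, with SE 0.219 and edgeR adjusted p = 5.8e-11). KCNT2, its paralog and the member of the class with the highest level per length, had 1485 and 1551 counts against 1048 and 1070, and passed the adjusted p downwards (-0.51, SE 0.0547, adjusted p = 1.5e-09). KCNT2 stood 94.4 and 115.7 times above KCNT1 per length in shControl and 14.2 and 13.9 times above it in shNeuroD1. The pair thus moved apart in direction, while KCNT2 remained the main gene of the pair in all 4 libraries. KCNN2, a small-conductance calcium-activated channel, had 34 and 30 counts against 83 and 75 (log2 fold change 1.31, with SE 0.237 and adjusted p = 2e-05). KCNN1, of the same family, passed the adjusted p alone (0.32). KCNMA1, the pore of the large-conductance BK channel, was named after its values were seen, and had 89 and 103 counts against 98 and 105 (log2 fold change 0.09, SE 0.171, adjusted p = 0.685).

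Inward rectifiers had calls in both directions, with 3 rising and 3 falling of 8 tested. The largest fall of all members was in the G protein-gated (GIRK) group, which opens when neurotransmitters such as acetylcholine or noradrenaline bind their receptors. KCNJ3 (ENSG00000162989, chromosome 2, 154698299 to 154858352, plus strand) had 101 and 84 counts in shControl against 10 and 11 in shNeuroD1 (log2 fold change -3.12, with SE 0.299 and edgeR adjusted p = 1.4e-10). KCNJ6 (chromosome 21, 37607376 to 38121345, minus strand) gave 62 and 76 counts against 25 and 21 (log2 fold change -1.57, with SE 0.265 and adjusted p = 7.2e-06). KCNJ9 (ENSG00000162728, chromosome 1, 160081570 to 160090563, plus strand) went the other way, with 6 and 5 counts against 44 and 35 (fitted log2 fold change 2.82, with SE 0.431 and adjusted p = 1.4e-06), and passed the filter only through shNeuroD1. By level per length, KCNJ9 went from the lowest of the 3 genes to the highest, and KCNJ3 stayed above KCNJ6 in all 4 libraries. In counts, KCNJ6 stood above KCNJ3 in shNeuroD1. The merged exons span 19965 bases in KCNJ6 and 5067 in KCNJ3. Per length, KCNJ3 held 81.4% and 76.8% of the 3 genes' sum in shControl and 14.3% and 18.7% in shNeuroD1, and KCNJ9 held 5.88% and 5.56% in shControl against 76.6% and 72.3% in shNeuroD1. The sum itself was low, 1.66 and 1.36 CPM per kb in shControl and 0.906 and 0.763 in shNeuroD1. KCNJ5, the remaining GIRK gene, had 7 counts in all and was not among the members.

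ATP-sensitive (KATP) channels pair a KCNJ8 or KCNJ11 pore with a sulfonylurea receptor, ABCC8 or ABCC9, and open when cell energy is low. KCNJ11 (ENSG00000187486, chromosome 11, 17385859 to 17389331, minus strand) gave 37 and 47 counts in shControl against 153 and 142 in shNeuroD1 (log2 fold change 1.82, with SE 0.190 and edgeR adjusted p = 9.1e-10). KCNJ8, the inward rectifier with the highest level per length, had 339 and 335 counts against 356 and 350 (log2 fold change 0.07, SE 0.0940, adjusted p = 0.526). KCNJ11 made 7.80% and 9.81% of the summed pore level per length in shControl and 25.0% and 23.9% in shNeuroD1. Among the receptors, ABCC9 had 190 and 208 counts against 42 and 31 (log2 fold change -2.43, with SE 0.183 and adjusted p = 5.2e-13), while ABCC8 passed the adjusted p upwards (0.64). ABCC8 thus stood 0.879 and 0.892 times the level of ABCC9 per length in shControl and 6.53 and 8.78 times in shNeuroD1. The ratios of the groups did not overlap.

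KCNJ4, a classical strong rectifier, had 60 and 55 counts in shControl against 24 and 22 in shNeuroD1 (log2 fold change -1.31, with SE 0.277 and edgeR adjusted p = 0.00016). KCNJ12, of the same type, had 153 and 191 counts against 409 and 432 (log2 fold change 1.30, with SE 0.107 and adjusted p = 4.7e-12). Reads of KCNJ12 cannot be told from those of its near copy KCNJ18 with confidence, although KCNJ18 held 1 count in all. KCNJ14 did not pass the test (adjusted p = 0.111).

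**Figure D4:**
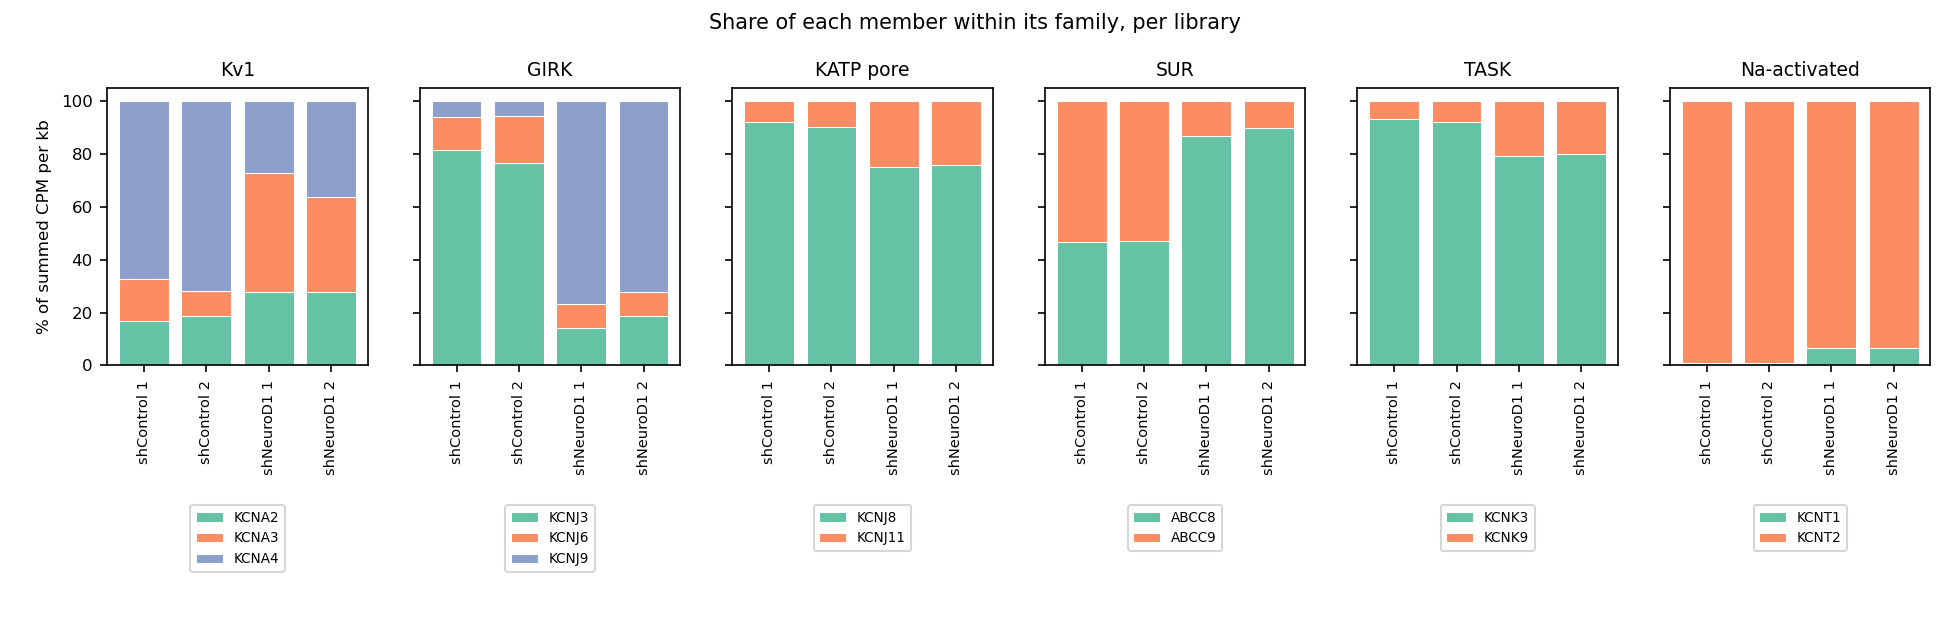
Share of each gene in the summed CPM per kb of its group, per library, for Kv1 and GIRK subunits, KATP pores, sulfonylurea receptors (SUR), the KCNK3 and KCNK9 (TASK) pair and sodium-activated channels. The GIRK panel changes from mostly KCNJ3 (81.4% and 76.8%) to mostly KCNJ9 (76.6% and 72.3%), and ABCC9 falls from 53.2% and 52.9% to 13.3% and 10.2% of the receptors.

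The KCNK genes encode leak channels that are open at rest. Of 7 tested, 2 rose and none fell. KCNK9 had 44 and 59 counts in shControl against 170 and 145 in shNeuroD1 (log2 fold change 1.62, with SE 0.182 and edgeR adjusted p = 4.4e-09). KCNK10 (chromosome 14, 88180103 to 88326907, minus strand), of the stretch- and lipid-sensitive TREK group, gave 34 and 49 counts against 181 and 109 (log2 fold change 1.81, with SE 0.225 and adjusted p = 3.1e-08). The shNeuroD1 libraries were unequal for KCNK10, and it was not called without shControl 1 (1.61, adjusted p = 0.0691) or without shControl 2 (2.03, adjusted p = 0.0508). The more abundant relatives of both genes did not pass the test. KCNK3, the acid-sensitive TASK relative of KCNK9 and the highest of the class per length, had 563 and 645 counts against 601 and 530 (log2 fold change -0.09, SE 0.0771, adjusted p = 0.361). KCNK2, the TREK relative of KCNK10 and named after its values were seen, had 314 and 337 counts against 303 and 303 (log2 fold change -0.09, SE 0.0970, adjusted p = 0.426). KCNK9 therefore went from 6.69% and 7.74% to 20.6% and 20.1% of the TASK pair per length, and KCNK10 from 4.88% and 6.44% to 22.0% and 14.6% of the TREK pair.

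Auxiliary subunits bind pore subunits and alter their gating or their traffic to the membrane. Of 9 tested, 3 rose and 1 fell past both thresholds. KCNAB2, a Kv1 beta subunit, had 53 and 56 counts in shControl against 142 and 134 in shNeuroD1 (log2 fold change 1.35, with SE 0.180 and edgeR adjusted p = 1.4e-07), and it shares 111 exon bases with NPHP4 on the opposite strand. KCNAB3, the auxiliary gene with the highest level per length, had 202 and 188 counts against 169 and 191 (log2 fold change -0.11, SE 0.131, adjusted p = 0.506). KCNIP proteins bind Kv4 channels. KCNIP3 had 31 and 20 counts against 50 and 65 (log2 fold change 1.17, with SE 0.285 and adjusted p = 0.00077). KCNIP4 had 22 and 24 counts against 53 and 39 (log2 fold change 1.00, with SE 0.298 and adjusted p = 0.00493), at the edge of the threshold for size.

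Neither KCNIP call held in every fit that left out a library. KCNIP3 was not called without shControl 2 (0.83, adjusted p = 0.105) or without shNeuroD1 2 (0.97, adjusted p = 0.0184). KCNIP4 was not called without shControl 1 (0.99, adjusted p = 0.101), without shControl 2 (1.00, adjusted p = 0.10) or without shNeuroD1 1 (0.76, adjusted p = 0.111). KCNIP2 did not pass the test (adjusted p = 0.532). Of the BK beta subunits, KCNMB4 passed the adjusted p alone (-0.85), and KCNMB3 had 21 and 19 counts against 9 and 10 (log2 fold change -1.06, with SE 0.440 and adjusted p = 0.0418). KCNMB3 passed the filter only through shControl, shares 3403 of 8979 exon bases with PIK3CA on the opposite strand, and was called in none of the 4 fits that leave out a library (-1.19 to -0.94). KCNRG, a regulator of Kv channels, shares 1086 of 1625 exon bases with TRIM13 on the same strand, so its 10, 20, 14 and 7 counts are uncertain.

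Among other tested members, KCNK5, KCNK6, KCNK12, KCNN3, KCNAB1 and KCNH1-IT1 did not pass the adjusted p, with log2 fold changes from -0.29 for KCNK6 to 0.45 for KCNAB1. The members below the filter were KCNC2, KCND3, KCNIP1, KCNJ2, KCNJ13, KCNK1, KCNK7 and KCNN4, with 0 to 14 counts in a library. The 33 KCN genes with fewer than 10 counts included KCNA1, KCNA5 and KCNA6 of the Kv1 family and KCNE3, which were at 0 in every library, as were 9 others. KCNQ1, the cardiac and epithelial KCNQ subunit, had 0 and 0 counts in shControl against 4 and 1 in shNeuroD1. A count of 0 in a library of this size limits the level but does not show that a gene is silent.

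A list of 46 genes whose proteins work with potassium channels or move potassium was examined beside the members. Of these, 41 were tested, 4 rose and 3 fell past both thresholds, and 17 rose and 13 fell by the adjusted p alone, with a median log2 fold change of 0.15. The background for these calls is the same 8.79% and 5.14%, and 26.8% and 28.2%, of all genes. ANK2, an ankyrin of neuronal membranes, had 1733 and 2207 counts in shControl against 5366 and 5709 in shNeuroD1 (log2 fold change 1.502, with SE 0.0541 and edgeR adjusted p = 3.5e-21). LINGO1, listed as a BK channel subunit, had 288 and 306 counts against 612 and 582 (1.02, SE 0.0846, adjusted p = 5.9e-12), and its size fell just below the threshold without shControl 2 (0.99) or shNeuroD1 1 (0.98). LGI1, a secreted protein of the Kv1 complex, had 13 and 14 counts against 44 and 32 (1.49, SE 0.362, adjusted p = 0.00076), and was not called without shControl 1 (1.48, adjusted p = 0.0609) or shControl 2 (1.48, adjusted p = 0.0619).

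AKAP5, which anchors kinases at KCNQ channels, fell from 208 and 212 counts in shControl to 80 and 80 in shNeuroD1 (log2 fold change -1.38, SE 0.148, edgeR adjusted p = 1.6e-09). ATP1B1, a beta subunit of the sodium-potassium pump, went from 2760 and 2852 to 1342 and 1413 counts (-1.02, SE 0.0497, adjusted p = 9.3e-18), and its size was just below the threshold without shControl 1 (-0.999) or shNeuroD1 1 (-0.99). SLC12A4, a potassium-chloride cotransporter, went from 6 and 9 to 15 and 18 counts (1.13, SE 0.485, adjusted p = 0.0478), and was called in none of the fits that leave out a library (0.92 to 1.38). The Kv4 partner DPP6 (0.72) and the Kv2 partner AMIGO1 (0.54) passed the adjusted p alone upwards. REST, the repressor of many neuronal genes, channels among them, passed it downwards (-0.51, SE 0.0763, adjusted p = 8.6e-07).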

How the data were processed

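RNAseq of 4 IMR-32 libraries was analysed, 2 with a control hairpin and 2 with a hairpin against NeuroD1. The authors deposited raw read counts per Ensembl gene, and per library FPKM of transcript starts and splicing events, which list only what was assembled. The submitters' processing notes name cutadapt 1.9.1, HISAT2 2.0.1, HTSeq 0.6.1, DESeq2 and hg38. Symbols were found for 60401 of 60612 gene IDs, and coordinates and exon lengths are those of GENCODE 29 (GRCh38). Each row of the table named a gene.

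Counts were fitted in edgeR 4.0.16 (R 4.3.3) over all 17537 genes kept by filterByExpr (minimum count 10), with TMM scaling, the two-sided quasi-likelihood F test and Benjamini-Hochberg adjustment over all genes. A call needed both an adjusted p below 0.05 and a change of more than 1 on the log2 scale, and the standard error is the log2 fold change divided by the square root of F. Levels are TMM-scaled CPM ± SD (n = 2), and levels between genes were compared per kb of exon. That length merges every annotated exon of a gene, whichever transcript is expressed, so the order of genes per length depends on it. The fits were tested on simulated data. Promoters are RefSeq sequences. Members, lists and the naming rule (every member past both thresholds, the highest of each class per length, partners past both thresholds, NEUROD1) were chosen with earlier results of these data known, and marker and partner lists were written by hand. Alternatives included DESeq2 1.42.0 (Wald), limma 3.58.1 on log2(FPKM + 1) and log2(FPKM + 0.1), other scalings and filters, and leaving out each library, which leaves a lone library assumed to vary like the other group. The fit reported did not pair libraries by replicate number, and whether the cultures were paired is not known. Strand use in counting is not given in the sources used here. Some members are counted in every total but not reported by name here.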

Additional observations from a re-analysis of the deposited data

Results flagged for a closer look

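KCN-named RNAs that are not channel genes were set aside from the comparisons, and 3 of them were higher in shNeuroD1 at an edgeR adjusted p under 0.05. The others with enough counts to be tested did not pass it. Over all genes tested, 26.8% were higher and 28.2% lower at that threshold, so passing it does not set these RNAs apart. KCNK15-AS1, an antisense RNA, had 5 and 6 counts in shControl against 19 and 24 in shNeuroD1 (log2 fold change 1.95, SE 0.490, adjusted p = 0.00108), while KCNK15 itself had 3 counts in all. It was not called without shControl 1, and its change was 1.77 to 2.11 over the fits that leave out a library. KCNJ2-AS1 had 7 and 5 counts against 16 and 13, a log2 fold change of 1.26 (SE 0.524, adjusted p = 0.0411), and was called in none of the fits that leave out a library. KCNQ1OT1, the long RNA of the imprinted KCNQ1 locus, had 380 and 474 counts against 750 and 741, a log2 fold change of 0.81 (SE 0.0778, adjusted p = 1.3e-10), and the KCNQ1 channel gene had 5 counts in all. KCNK15-AS1 and KCNJ2-AS1 passed the filter on low counts only through the shNeuroD1 libraries, where they were higher.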

How the results depend on the processing

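Of the 23 members called, 17 were called in every one of 10 other fits on the counts (other scalings and filters, DESeq2, the block and leaving out each library), and KCND2, KCNIP3, KCNIP4, KCNK10, KCNMB3 and KCNS3 were lost in at least 1. Members higher and lower numbered 16 and 7 in the edgeR fit reported, 15 and 6 with the DESeq2 Wald test, 10 and 4 with glmTreat against a log2 fold change of 1, and 23 and 14 at the adjusted p alone. limma on log2(FPKM + 1) and on log2(FPKM + 0.1), which tested 18 members, called 1 higher and 0 lower in both, and 1 and 0 of the partner genes. The share of all genes called was computed only for the edgeR fit reported. Counts from the other fits therefore have no background beside them. Partner genes higher numbered 4 as reported, 1 with glmTreat and 17 at the adjusted p alone, and those lower 3 as reported and 13 at the adjusted p alone. Leaving out each library gave 12 to 15 members higher, 5 to 7 lower, 1 to 3 partners higher, 2 to 3 partners lower, a NEUROD1 change of -2.84 to -2.71 and a member median of 0.095 to 0.26.

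The member median of 0.15 moved beyond the spread between replicates (0.017) to 0.27 with library size alone, where the median of all genes was 0.12. It also moved to 0.33 with genes averaging 1 CPM or more and to 0.17 with the replicate block. With limma it was -0.0091 on log2(FPKM + 1) and -0.0143 on log2(FPKM + 0.1). The limma medians cover only the 18 members tested there, not the 59, and have no median of all genes beside them. KCNAB3 and KCNK3, which did not pass the test, changed sign to 0.0039 and 0.0263 with library size alone, and KCNK3 ranged from -0.182 to 0.0023 over the fits that leave out a library, the latter without shNeuroD1 2. Deviations of libraries with the same number were nearly uncorrelated (correlation 0.0158). With 2 libraries a group this cannot show whether cultures were paired. With the replicate block, 15 members were higher and 6 lower. NEUROD1 was not fitted on FPKM, because its rows there belong to a merged locus. With 2 libraries a group, members under about 50 counts rest on few reads, and for these a p above the threshold says little.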
